A study of Mus musculus with 2 samples.

Results

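The carboxylesterase genes of the Ces1 and Ces2 families and the arylacetamide deacetylase gene Aadac were compared between small intestinal epithelial cells of wild-type (miR-215+/+) mice and of mice without miR-215 (miR-215-/-), a microRNA of the gut epithelium. The set holds 10 of the 23284 genes listed, namely Ces1d, Ces1e, Ces1f, Ces1g, Ces2a, Ces2b, Ces2c, Ces2e, Ces2g and Aadac. They were selected by gene name, with earlier results of these 2 libraries in view, so that their knockout to wild-type ratios are a description and no test of them was made. There was 1 library of polyadenylated RNA per genotype. So no difference has a replicate check, and a gene called "lower" or "higher" was so in the knockout library. The sources used here do not give the number of animals behind a library, their strain, sex and age, or which bases of the Mir215 locus were removed.

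Carboxylesterases are serine hydrolases of the endoplasmic reticulum lumen that cleave ester and amide bonds in drugs, prodrugs and lipids. In the intestine they meet swallowed esters before these reach the portal blood, and several of them also hydrolyse acylglycerols stored in enterocytes. Mice carry many copies of these genes in tandem arrays, whereas Aadac encodes a separate, membrane-anchored esterase of the same compartment that deacetylates arylamides and is linked to triglyceride turnover.

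Levels are in FPKM, which divides fragments by transcript length and by library depth, so levels of different genes can be set side by side. Steps between the lowest values put 1 fragment on a 1 kb transcript at 0.115 FPKM for the wild type and 0.111 for the knockout, and the number of fragments behind each gene was estimated with its transcript length. The 95% intervals below are exact Clopper-Pearson intervals made from these fragments. They cover counting error only, not the difference between animals, and they rest on the assumed transcript length. Summed FPKM were 750631 and 683884. Mir215 itself had a deposited value of 137 FPKM in the wild type and of 0 in the knockout. Its gene is 112 nt long, and 137 FPKM was the lowest value above 0 among 72 genes within 8 nt of that length there, so the value rests on few fragments and does not measure the mature microRNA.

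All 10 genes reached 1 FPKM in at least 1 library, the filter used, and all 10 were lower in the knockout library, where 56% of the 11504 genes kept were. On the log2 scale after adding 1 FPKM to each value, Ces1d, Ces1g and Aadac were at least 2-fold lower, against a background of 2.04% of the genes kept, and 0 of the 10 were at least 2-fold higher, against 1.34%. At a smaller fold of 1.5, 8 of the 10 were lower, all but Ces2b and Ces2c, where the background was 7.26%. The median log2 ratio was -0.70 for the 10 genes and -0.05 for all genes kept. With the knockout values raised to the wild-type sum, 4 of the 10 remained at least 1.5-fold lower (Ces1d, Ces1e, Ces1g and Aadac) against 4.90% of all genes, and the same 3 genes at least 2-fold. The 3 scalings tried raised the knockout values by at most 1.10-fold. This is less than the smallest fold of the 10 (1.35-fold for Ces2c), so they could not reverse any direction. In bulk cell preparations, fewer cells of a type and less RNA per cell cannot be told apart.

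**Figure D1:**
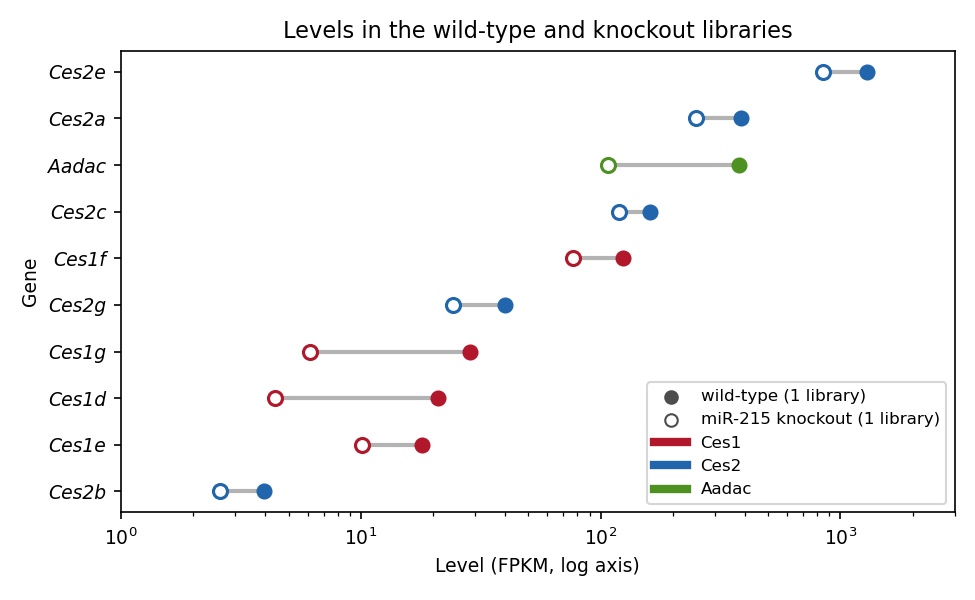
Level of each of the 10 genes in FPKM on a log axis, with 1 filled point for the wild-type library and 1 open point for the knockout library, coloured by family and ordered by the wild-type level. Every open point lies left of its filled point, from 1292 and 847 FPKM for Ces2e down to 3.95 and 2.58 FPKM for Ces2b, and the widest gaps are those of Ces1d, Ces1g and Aadac.

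The Ces2 genes made up most of the carboxylesterase transcripts and were lower by similar amounts. Ces2e, an esterase known for high expression in the small intestine, was at 1292 FPKM in the wild type and 847 in the knockout, 1.53-fold lower (95% counting interval 1.497 to 1.555, from about 26307 and 17903 fragments). Ces2a, an esterase of liver and intestine, was at 387 and 249 FPKM, 1.55-fold lower (1.49 to 1.61). Ces2c, an enzyme described as a hydrolase of acylglycerols and of drug esters in the gut, was at 161 and 119 FPKM, 1.35-fold lower (1.27 to 1.43). Ces2c had the smallest difference of the 10 genes on the log2 scale, and its interval did not overlap those of Ces2a and Ces2e.

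The remaining Ces2 genes were less abundant. Ces2g was at 39.97 and 24.2 FPKM, 1.65-fold lower (1.49 to 1.83). Ces2b, the least abundant of the 10, was at 3.95 and 2.58 FPKM, which rested on about 117 and 79 fragments, 1.53-fold lower (1.146 to 2.07). Summed over the 5 genes, Ces2 transcripts were at 1883 FPKM in the wild type and 1242 in the knockout, a ratio of 0.660. The make-up of the family was nearly the same in the libraries. Ces2e took 68.6% of the Ces2 sum in the wild type and 68.2% in the knockout, Ces2a 20.5% and 20.1%, and Ces2c 8.54% and 9.60%. These shares compare genes within a library and do not depend on how the libraries were scaled to each other.

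The Ces1 genes did not share 1 ratio. Ces1d, known as triacylglycerol hydrolase and studied for its part in lipoprotein assembly in the liver, was at 21.0 FPKM in the wild type and 4.38 in the knockout, 4.79-fold lower (3.75 to 6.20, from about 365 and 79 fragments). Ces1g, another esterase with a known role in hepatic lipid handling, was at 28.5 and 6.12 FPKM, 4.65-fold lower (3.84 to 5.65). These were the lowest log2 ratios of the 10 genes, -2.03 for Ces1d and -2.05 for Ces1g, and 0.374% and 0.356% of all genes kept had a lower one.

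The other pair of Ces1 genes lay near the Ces2 genes. Ces1e, or egasyn, which holds beta-glucuronidase in the endoplasmic reticulum, was at 18.04 and 10.1 FPKM, 1.78-fold lower (1.48 to 2.14). Ces1f, a relative of Ces1d that acts on stored lipid, was at 124.6 and 76.6 FPKM, 1.63-fold lower (1.52 to 1.74, from about 2080 and 1328 fragments). The intervals of Ces1e and Ces1f overlapped each other and did not reach those of Ces1d and Ces1g. The order of levels changed accordingly. Ces1e was at 0.859 times the level of Ces1d in the wild type and 2.31 times in the knockout, whereas Ces1g stood at 1.36 and 1.40 times Ces1d. Ces1f took 64.8% of the summed Ces1 level in the wild type and 78.8% in the knockout, while Ces1g went from 14.8% to 6.30% and Ces1d from 10.9% to 4.51%. The Ces1 sum was 192 FPKM and 97.2 FPKM, a ratio of 0.506.

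Aadac combined a high level with a large difference. Its level was 377 FPKM in the wild type, close to Ces2a, and 107 FPKM in the knockout, 3.52-fold lower (3.31 to 3.75, from about 4324 and 1275 fragments), with a log2 ratio of -1.81 that 0.487% of all genes kept fell below. Its interval ended where that of Ces1d began, at 3.75, and overlapped none of those of the Ces2 genes. Ces2e was at 3.43 times the level of Aadac in the wild type and at 7.92 times in the knockout. Of the 1161 genes with at least 100 FPKM in the wild-type library, 4.13% were at least 2-fold lower and 14.6% at least 1.5-fold lower. Among the 5 members at that level, Aadac was at least 2-fold lower, and 4 of the 5, all but Ces2c, were at least 1.5-fold lower. With equal sums only Aadac of these stayed at least 1.5-fold lower, and Ces1f, Ces2a and Ces2e were at log2 ratios of -0.56, -0.50 and -0.47.

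**Figure D2:**
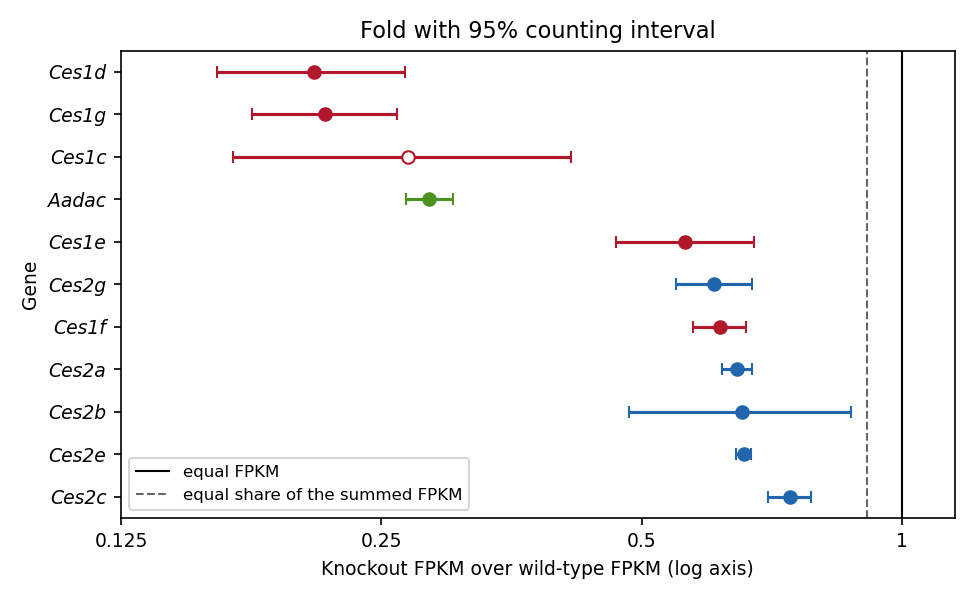
Knockout FPKM over wild-type FPKM on a log axis for the 10 genes and, as an open point, their neighbour Ces1c, with bars for the 95% counting interval from estimated fragments. The solid line marks equal FPKM and the dashed line an equal share of the summed FPKM. Ces1d, Ces1g, Ces1c and Aadac lie between 0.209 and 0.284, apart from Ces1e, Ces1f and the Ces2 genes between 0.561 and 0.741.

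The genes lie in tandem arrays, and neighbours in an array did not always have similar ratios. In the GENCODE M21 annotation (GRCm38, which is mm10), the Ces1 array is read from the minus strand of chromosome 8. Ces1d lies at chr8:93166068-93197838, Ces1e at chr8:93201218-93229619, Ces1f at chr8:93256236-93279747 and Ces1g at chr8:93302369-93337308, each with 14 exons. Ces1e and Ces1f, with the smaller differences, thus lie between Ces1d and Ces1g. The Ces2 array is on the plus strand of the same chromosome, with Ces2a at chr8:104734003-104741634, Ces2b at chr8:104831572-104840093, Ces2c at chr8:104847068-104854483, Ces2e at chr8:104926260-104934672 and Ces2g at chr8:104961718-104969537, each with 12 exons. Aadac lies alone among silent relatives at chr3:60025717-60040160.

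The kept genes next to the Ces2 array had smaller log2 ratios in size than the members. After the Ces2 array, Cbfb, a transcription factor subunit, was at 7.40 and 8.68 FPKM (log2 ratio 0.20) and D230025D16Rik at 5.32 and 5.16 FPKM (-0.04). The listed genes before either array, Capns2, Slc6a2, Cdh16 and Rrad, and Gnao1 after the Ces1 array were under 1 FPKM in both libraries. Beyond Aadac, the succinate receptor gene Sucnr1 was at 1.73 and 1.01 FPKM (log2 ratio -0.44) and Mbnl1, a splicing regulator, at 23.4 and 20.7 FPKM (-0.17).

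Other carboxylesterase genes were low. Ces1c, the secreted plasma carboxylesterase and the neighbour of Ces1d, was at 6.10 FPKM in the wild type and 1.64 in the knockout, 3.73-fold lower (2.41 to 5.94, from about 97 and 27 fragments). It is the only gene of these families outside the 10 that reached 2 FPKM, apart from the Aadac relative Nceh1, a neutral cholesterol ester hydrolase of 7.18 and 4.08 FPKM (1.76-fold lower, 1.44 to 2.14). Ces3a was at 1.059 and 1.1502 FPKM, with an interval of the knockout to wild-type fold of 0.538 to 2.15. Ces1b, Ces2f and Ces3b rested on 4 fragments or fewer in each library, the pseudogene Ces2d-ps on about 13 and 11, and Ces1a, Ces4a, Ces5a and 6 Aadac relatives were listed at 0 in both libraries. Ces1h and Ces2h were not analysed here.

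**Figure D3:**
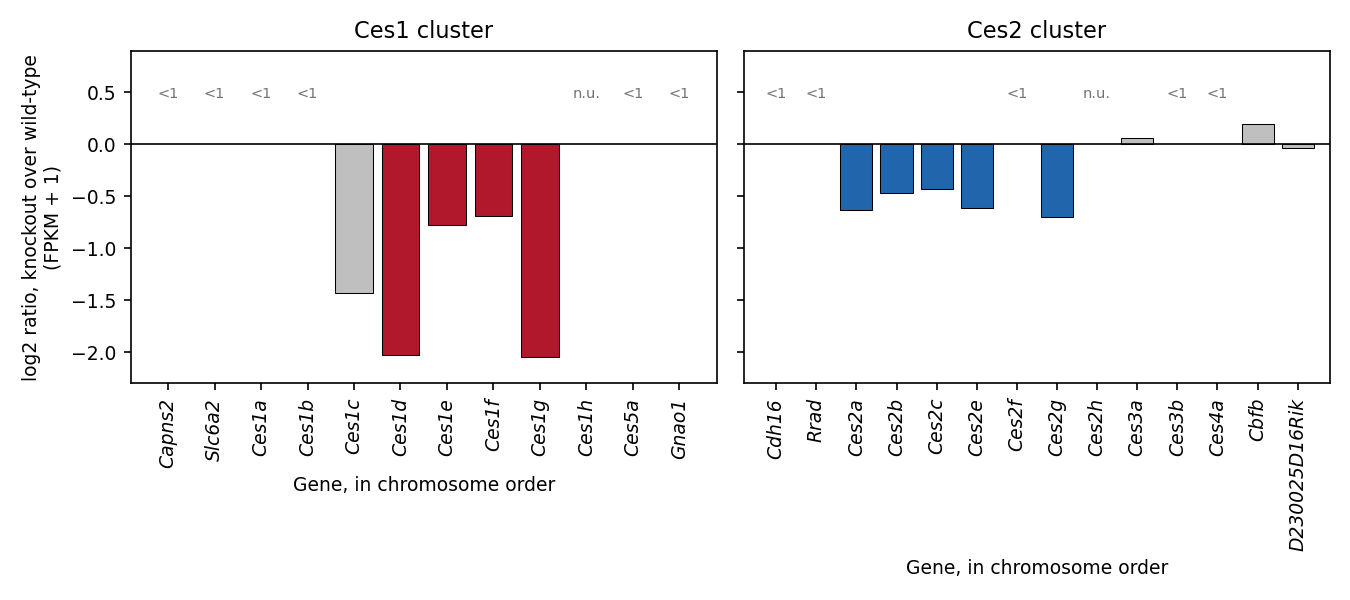
Bars give the log2 ratio, knockout over wild-type after adding 1 FPKM, for protein-coding genes only, in chromosome order along the 2 arrays, with up to 2 listed genes on either side. Coloured bars are members and grey bars other genes, "<1" marks genes under 1 FPKM in both libraries and "n.u." genes not used. Ces1d and Ces1g reach -2.03 and -2.05, Ces1e and Ces1f between them stay at -0.78 and -0.69, and the Ces2 bars range from -0.43 to -0.70.

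Sequence shared between copies limits how well single genes can be told apart. Coding sequences were 81.6% to 92.1% identical within the Ces2 genes, 74.6% to 81.6% within the Ces1 genes with Ces1c, and 62.3% to 65.4% between the families. Of all 50-base words in the longest RefSeq-linked transcript, 42.2% of those of Ces2c occurred in another gene's transcript, most of them (38.2% of all) in Ces2d-ps, and 22.2% of those of Ces2a did, mainly in the pseudogene Gm7208 (20.9%). For Ces2b the share was 9.56% and for the other 7 genes between 0% (Aadac) and 3.95% (Ces2g). Ces2b shared most with Ces2c (2.95% of all), which was at 161 and 119 FPKM against 3.95 and 2.58 for Ces2b. Words shared with another of the 10 genes were at most 6.66%. The values of Ces2c, Ces2a and the far less abundant Ces2b are therefore the more uncertain ones. The sources used here do not say how such fragments were shared out. Ces1d, Ces1g and Aadac shared 1.28%, 1.67% and 0%.

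Because the knockout removes a microRNA, the 3' untranslated regions were searched for its seed match. The mature strands of miR-215 and of its relative miR-192, which share a seed, are printed from RefSeq (GRCm38.p6) with bases 2 to 8, the seed, in capitals.
mmu-miR-215-5p: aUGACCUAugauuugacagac
mmu-miR-192-5p: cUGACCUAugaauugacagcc
The match to the whole seed, TAGGTCA, occurred in 0 of the 10 longest annotated 3' untranslated regions of the members, and in 6.39% of 21020 genes. The match to bases 2 to 7, AGGTCA, occurred in Ces2g only, against 27.8% of genes. That site, in capitals, starts at base 809 of a region of 1106 nt, and the stretch printed around it lies at chr8:104969228-104969257 on the plus strand of GRCm38.
Ces2g site: tgatgcctgacaAGGTCAttctctgctata
Ces2g, with the lone match, had a log2 ratio of -0.70, equal to the median of the 10. The regions were short for several members, 81 nt for Aadac, 187 for Ces1d and 536 for Ces1g, and the longest was that of Ces2b at 1637 nt. A match is a description of the letters and not a measured binding site.

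Promoter windows from RefSeq (GRCm38.p6) were at hand for 7 of the 10 genes, all but Ces1d, Ces1f and Ces2b. The 100 bases before the start of the Ces2 genes are printed because these genes had similar ratios. Capitals mark the words of at least 6 letters that stand in all 4 stretches.
Ces2a, chr8:104733903-104734002, plus strand: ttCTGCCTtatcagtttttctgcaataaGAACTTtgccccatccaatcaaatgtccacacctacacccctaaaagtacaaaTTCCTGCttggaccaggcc
Ces2c, chr8:104846968-104847067, plus strand: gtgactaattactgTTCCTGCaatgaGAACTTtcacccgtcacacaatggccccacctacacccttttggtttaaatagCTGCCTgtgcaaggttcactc
Ces2e, chr8:104926160-104926259, plus strand: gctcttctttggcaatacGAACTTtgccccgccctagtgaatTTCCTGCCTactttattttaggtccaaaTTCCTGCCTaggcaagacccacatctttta
Ces2g, chr8:104961618-104961717, plus strand: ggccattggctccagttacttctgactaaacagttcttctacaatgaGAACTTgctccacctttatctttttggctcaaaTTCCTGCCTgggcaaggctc
The words were GAACTT, which began 53 to 82 bases before the start, TTCCTGC and CTGCCT. On either strand, GAACTT stood in 11.5% of all 32851 windows of 250 bases before a start, TTCCTGC in 7.28% and CTGCCT in 26.4%, and none of them stood in the 3 windows of Ces1e, Ces1g and Aadac. The Ces2 genes are duplicates, so shared words need no shared use.

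The same stretch is printed for Ces1e and Ces1g, the pair with a window among the Ces1 genes, which differed in ratio. Here capitals mark the matches to the motifs searched.
Ces1e, chr8:93229620-93229719, minus strand: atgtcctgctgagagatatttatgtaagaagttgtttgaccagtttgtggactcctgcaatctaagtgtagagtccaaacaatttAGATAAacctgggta
Ces1g, chr8:93337210-93337309, minus strand: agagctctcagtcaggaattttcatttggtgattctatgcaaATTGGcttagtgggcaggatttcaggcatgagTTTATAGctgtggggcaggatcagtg
The RefSeq start of Ces1g lies inside the GENCODE gene, so nearly all of its stretch falls within that gene model. In the window of 250 bases, on either strand, Ces1g held the TATA box letters TATAAA (12.4% of all windows) and the CDX motif TTTATNG (9.81%), which overlap 26 bases before the start, and the CCAAT box (33.8%). The TATAAA letters lie on the strand opposite to the gene, in bases that the CDX match also covers. Ces1e held no TATA box, CDX or CCAAT box letters. The GATA motif AGATAA (9.99%) stood in the windows of Ces1e, Ces1g and Ces2g. The HNF4 letters CAAAGT (12.6%) stood in those of Ces2a, Ces2e and Ces2g, and in Ces2a and Ces2e they overlap GAACTT. The nuclear receptor motif AGGTCA (14.0%) stood in that of Ces2a, the GC box GGGCGG (32.7%) in that of Ces2e, and the CCAAT box also in those of Ces2a, Ces2c, Ces2g and Aadac. The longer letters GTTAATNAT for HNF1 (0.737%) and CAAAGTCCA for HNF4 (0.384%) stood in none of the 7.

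**Figure D4:**
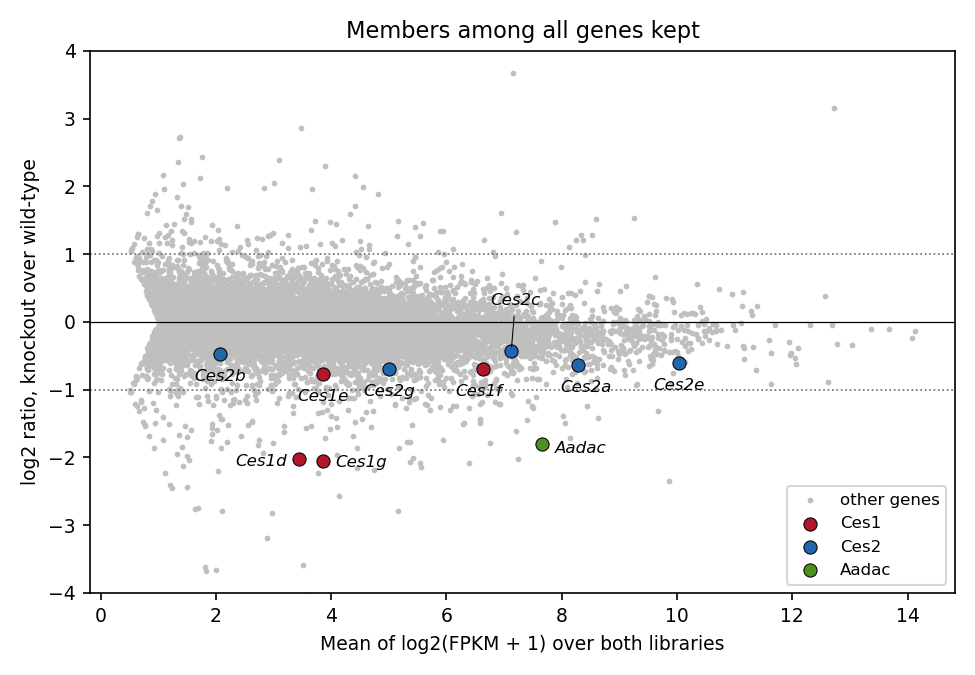
Log2 ratio, knockout over wild-type after adding 1 FPKM, against the mean log2 level of both libraries for the 11504 genes kept, with the 10 members coloured by family and dotted lines at 2-fold. The vertical axis stops at 4 in either direction, and 33 other genes lie beyond it. The Ces2 genes, Ces1e and Ces1f lie below 0 inside the 2-fold lines, and Ces1d, Ces1g and Aadac lie outside it.

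Other esterases of drugs and lipids were mostly lower too, by less. Of 20 measured genes, 19 had a log2 ratio below 0 (56% of all genes kept), 2 were at least 2-fold lower (2.04%) and 0 higher (1.34%). The median was -0.38 against -0.05 for all genes. With equal sums, 18 of 21 were below 0 and 1 was at least 2-fold lower (1.59% of all genes). The median was then -0.24, against 0.07 for all genes. The share of all genes below 0 was not taken at that scaling. The lactonase gene Pon3 was at 40.9 and 15.9 FPKM, 2.58-fold lower (2.23 to 2.99). Butyrylcholinesterase, Bche, was at 66.3 and 32.3 FPKM, 2.05-fold lower (1.94 to 2.17), and the fatty acid amide hydrolase gene Faah at 102 and 55.2 FPKM. The most abundant, Cmbl, a hydrolase that activates the prodrug olmesartan medoxomil, was at 211 and 148 FPKM, 1.43-fold lower (1.34 to 1.53).

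Genes of oxidation, conjugation and transport of drugs were set beside the esterase genes. Of 18 genes, 17 were below 0 (56% of all genes kept) and 8 at least 2-fold lower (2.04%), with a median of -0.94. With equal sums these were 17 and 6 (1.59% of all genes at least 2-fold lower), with a median of -0.81 against 0.07 for all genes. The list was chosen with earlier results of these data known, so its counts are a description. Cyp2c66 was at 94.6 and 21.6 FPKM, 4.38-fold lower (3.87 to 4.96), the glucuronosyltransferase gene Ugt2b5 at 32.7 and 7.68 FPKM, 4.26-fold lower (3.52 to 5.23), and Cyp2c29 at 21.4 and 1.44 FPKM. The most abundant, Cyp3a11, a xenobiotic-inducible cytochrome P450, was at 1284 and 517 FPKM, 2.49-fold lower (2.43 to 2.54). The intervals of Cyp2c66 and Ugt2b5 overlapped those of Ces1d and Ces1g. The exception was Por, the reductase that serves these cytochromes, at 114 and 129 FPKM.

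Among 15 transcription factors linked to carboxylesterase genes, 11 were below 0, where 56% of all genes kept were. Of these factors 0 reached 2-fold in either direction, and the median was -0.35, or -0.23 with equal sums. Nr1i2, which encodes the xenobiotic receptor PXR, was at 59.8 and 74.9 FPKM, higher by 1.25-fold (1.17 to 1.35). Nr1i3, which encodes the related receptor CAR, was at 41.4 and 27.0 FPKM, 1.54-fold lower (1.33 to 1.77). The intestinal factor Cdx2 was at 124 and 64.8 FPKM, 1.92-fold lower (1.79 to 2.05), the oxidant-response factor Nfe2l2 at 134 and 94.8 FPKM, and Hnf4a, the most abundant, at 260.0 and 209.8 FPKM.

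With the deposited values, the lipid and secretory partners of these enzymes lay nearer to 0 as lists than the lists above. The lipid pools that carboxylesterases act on are formed in triglyceride resynthesis and chylomicron assembly. Of 12 genes of these steps, 8 were below 0, where 56% of all genes kept were. In this list 0 reached 2-fold, and the median was -0.18, or -0.04 with equal sums. Mttp, the triglyceride transfer protein gene, was at 1110.4 and 1208 FPKM, the lipid droplet gene Cidec at 59.3 and 95.02, Tm6sf2 at 439 and 310.2 and Fitm2 at 6.29 and 3.92. Gusb, which encodes the beta-glucuronidase that Ces1e retains, was at 7.62 and 8.66 FPKM, and the fold interval of 0.927 to 1.40 included no difference. Of the 6 endoplasmic reticulum genes set beside Ces1e, 2 were below 0, with a median of 0.12. With equal sums 1 was below 0 and the median was 0.24, against 0.07 for all genes. This list median was as far from 0 as that of the other esterases (-0.24). The retrieval receptor gene Kdelr3 was at 7.06 and 16.5 FPKM and the chaperone gene Hspa5 at 192 and 337, both higher, and the most abundant, P4hb, was at 1439 and 1405.

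**Figure D5:**
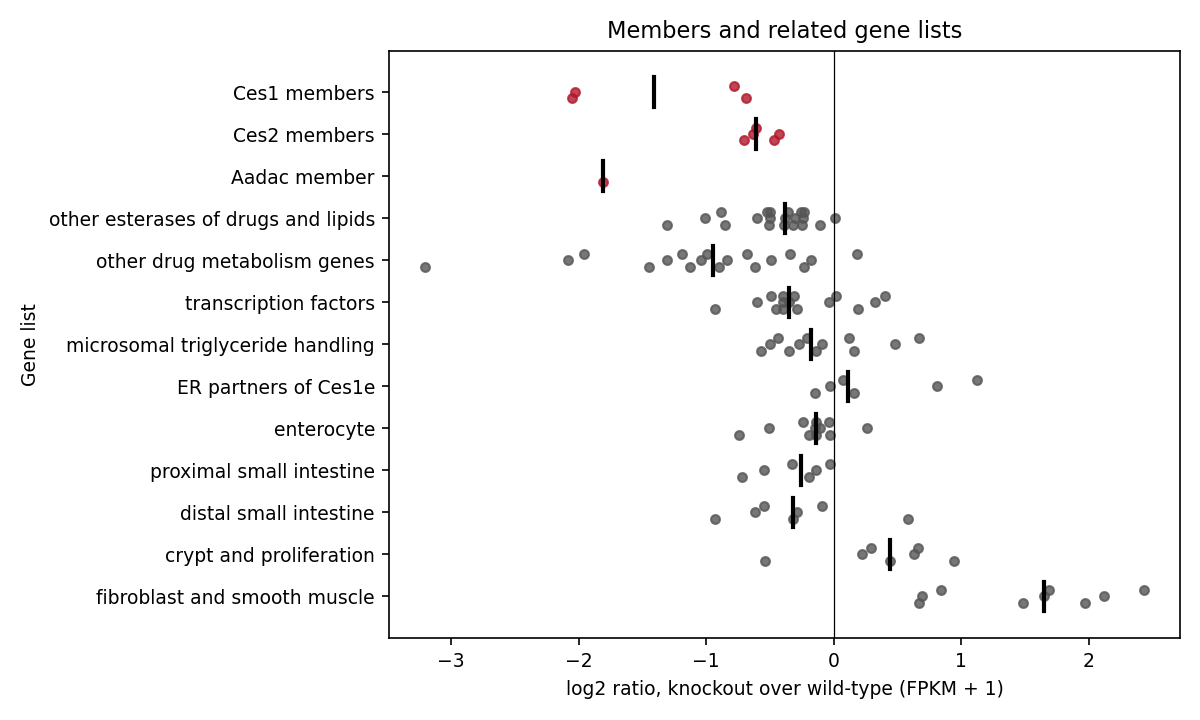
Each point is the log2 ratio, knockout over wild-type after adding 1 FPKM, of 1 kept gene, grouped by list, with a black bar at the list median and members in red. The medians are -1.40 for the Ces1 and -0.61 for the Ces2 members, -0.38 for other esterases, -0.94 for other drug metabolism genes, -0.14 for enterocyte markers and 1.65 for fibroblast and smooth muscle markers.

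Markers of cell types and regions moved with these differences as follows, and their part in the carboxylesterase values was not tested. The label of epithelium fits the levels of Epcam (1539 and 1400.2 FPKM) and of the brush border gene Vil1 (1600.1 and 1566 FPKM). The 11 enterocyte markers had a median log2 ratio of -0.14, with 10 below 0, where 56% of all genes kept were. They summed to 60944 and 54709 FPKM. With equal sums 7 of the 11 were below 0, and the median of all genes was 0.07. The neprilysin gene Mme had the lowest log2 ratio of the 11 markers, at 387 and 231 FPKM. Markers of proximal intestine had a median of -0.26 (sums of 8673 and 6984 FPKM) and markers of distal intestine -0.32 (6787 and 5082 FPKM). Crypt and proliferation markers were higher in 6 of 7, with sums of 184 and 255 FPKM, mostly from Olfm4 (149 and 202 FPKM). The exception was the stem cell gene Lgr5, at 1.91 and 1.01 FPKM, 1.90-fold lower (1.28 to 2.80). All 9 measured fibroblast and smooth muscle markers were higher, with sums over the 10 listed of 12.5 and 47.9 FPKM, and so were 8 of 9 myeloid markers, with sums of 72.0 and 92.7 FPKM. Both measured endothelial markers were higher too, with list sums of 1.38 and 5.98 FPKM. Lymphocyte markers summed to 354.5 and 356.7 FPKM, with 6 of 9 below 0. The median was 0.13 for Paneth cell, -0.04 for goblet cell and 0.04 for enteroendocrine and tuft cell markers. Red blood cell genes summed to 74.6 and 14.8 FPKM, and pancreatic acinar genes to 81.5 and 46.6 FPKM, with Prss1 and Pnlip at 0 in both libraries.

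Liver is a known site of Ces1 and Aadac expression, and fat is one of Ces1 expression. Of the hepatocyte markers, Fgb and Ahsg were listed at 0 in both libraries, and Alb was at 0.335 and 0.108 FPKM, about 6 and 2 fragments. Apoa2 was at 11.5 and 2.53 FPKM, 4.54-fold lower (2.37 to 9.26, from about 52 and 12 fragments). On so few fragments the interval is wide, so its overlap with those of Ces1d, Ces1g and Aadac says little. Ttr was at 3.44 and 1.66 FPKM, 2.08-fold lower (1.11 to 3.79), and Tat at 1.04 and 1.69 FPKM. Of the 4 measured genes of the list, 2 were below 0 (56% of all genes kept). The list summed to 106 and 115 FPKM, most of it from Cps1, which the intestine also expresses (89.9 and 109 FPKM). The part of these markers in the Ces1 and Aadac values was not tested. Of the adipocyte markers, Lep, Plin1 and Retn were at 0 in both libraries, and the 6 genes summed to 0.344 and 2.42 FPKM. Most of the knockout sum came from Fabp4 (0 and 2.28 FPKM), while Adipoq was at 0.200 and 0 FPKM and Cfd at 0.143 and 0.138.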

How the data were processed

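The authors deposited 1 table per library with 1 FPKM value per gene. The headers name no unit, and FPKM was inferred from the tool in the submitters' processing notes and from the values. Those notes list Cuffnorm 2.2.1, SAMtools 0.1.19, TopHat2 2.0.13 and Bowtie2 2.2.3 with the build mm10, and no role or setting. Per the labels' protocols, libraries were made with a stranded mRNA kit. The sources used here give neither the annotation nor the use of strand nor how libraries were scaled to each other.

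Of 23284 genes, the 11504 that reached 1 FPKM in either library were kept, and log2(knockout + 1) minus log2(wild-type + 1) was taken, which understates differences of low genes. With 1 library per genotype no test was run, and 2-fold is a rule of size. A fold printed with an interval divides the deposited values themselves. The worth of 1 fragment came from 137 protein-coding genes with 1 transcript of 1000 to 5000 nt, and its ratio between libraries, 0.963, from 246 of 602 genes under 0.1 FPKM that had the same ratio. Transcript lengths are medians of RefSeq-linked GENCODE M21 transcripts. The step was checked on simulated data. Of the symbols, 22826 matched that annotation, directly or through an older symbol.

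The members and lists were chosen with earlier results of these data known, and the motifs and shared words after the windows were seen. Named genes outside the families are up to 3 per list with the log2 ratio farthest from 0, the most abundant gene of each list, and the genes next to the arrays. Por, Nr1i2 and the single marker genes were chosen after their values were seen. A gene next to the Ces1 array is not reported here. No gene was named for a like pattern, since 2 libraries give 1 ratio per gene. Alternatives were other pseudocounts, filters, scalings and transcript lengths. Python 3.11.15, pandas 2.3.3, scipy 1.17.1 and Biopython 1.88 were used.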

Additional observations from a re-analysis of the deposited data

How the results depend on the processing

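With 1 library per genotype, none of these values has a replicate error, and depth limits chiefly Ces2b, Ces1d and Ces1g, whose knockout values rest on about 79, 79 and 132 fragments. No paired analysis was possible because the labels give 1 library per genotype and no replicate numbers. The counts of members at least 2-fold lower (3) and higher (0) were the same under the 7 alternatives for pseudocount, scaling and filter. A filter alters no ratio and the scalings were too small to change either count. Only a pseudocount could have moved the count of 3. The log2 ratios of single members were below 0 in 50 of 50 recomputations, 37 of them within the counting interval. A pseudocount cannot change the sign of a ratio, and the scalings raised the knockout values by at most 1.10-fold. The 50 signs could therefore not have differed, and they are no check of direction. With the deposited scaling, the interval of the fold lay below 1 for 10 of 10 members with the shortest and the longest annotated transcript. The upper bound for Ces2b with the shortest was 0.974, which the largest scaling, of 1.10-fold, would carry past 1. Equal sums moved the median of all genes from -0.05 to 0.07, the median of the members to -0.57, the Ces1 sum from -0.97 to -0.84 and the Ces2 sum from -0.60 to -0.47. Equal upper quartiles gave -0.86 and -0.48 for these sums, and a median ratio of 0 gave -0.92 and -0.55. Summing by family moved the median of the members to -0.97. The count of members at least 1.5-fold lower, an alternative rule added after the data were seen, went from 8 to 4 with equal sums and 5 with equal upper quartiles. Of all genes, 235 were at least 2-fold lower and 154 higher. With a pseudocount of 0.1 FPKM these were 361 and 339, and with 5 FPKM 120 and 60. A minimum of 5 FPKM left 97 higher. With a pseudocount of 5 FPKM, 466 of all genes were at least 1.5-fold lower, against 835.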
